A study of Homo sapiens with 24 samples.

Results

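MAP2, DEFB1, KILH and F2RL2 are 4 of 12009 genes in a count table from the established human hepatic cell line HepG2, and they were chosen by their read counts. Each had few reads in the libraries with a control guide and non-targeting siRNA (siNC; sgCtrl) and clear reads in the libraries with the same siRNA and either of 2 guides against KEAP1 (siNC; sgKeap1-1 and siNC; sgKeap1-2). The other 3 groups of the study carry the same guides with siRNA against TFEB and TFE3 (sitfeb/sitfe3). The rule of that choice did not use them, and they give the limma-voom and permutation tests of the members below. The members were named with earlier results of these data known, so these tests may not be fully independent of the choice. KEAP1 presents the transcription factor NRF2, product of NFE2L2, to a ubiquitin ligase, and without KEAP1 the factor accumulates and switches on genes of antioxidant defence, glutathione synthesis and xenobiotic metabolism. None of the 4 genes is on the list of textbook NRF2 targets used here.

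MAP2 (Entrez gene 4133) encodes a microtubule-associated protein that stabilises microtubules in neuronal dendrites. DEFB1 (gene 1672) encodes beta-defensin 1, a secreted antimicrobial peptide of epithelia. F2RL2 (gene 2151) encodes protease-activated receptor PAR3, a thrombin receptor that acts as a cofactor for other receptors of its family. KILH (gene 101927136) is a long non-coding RNA gene that lies next to GCLC, the gene for the catalytic subunit of the enzyme that begins glutathione synthesis and itself a textbook NRF2 target. On GRCh37, MAP2 spans chromosome 2 from 210288771 to 210598871 on the plus strand. F2RL2 spans chromosome 5 from 75911307 to 75919238 on the minus strand and lies within IQGAP2, which runs from 75699110 to 76003957 on the plus strand. KILH has no entry under that name in the GRCh37 annotation used here.

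RefSeq (GRCh38.p14) gives promoter windows for F2RL2, KILH and MAP2, and the 250 bases before a start site are shown for each, because the genes rose together and the F2RL2 window holds a match to a motif that the other windows lack. Capitals mark that match, TGAGTCA, 1 form of the AP-1 motif TGANTCA. The F2RL2 window is chr5:76623404-76623653 and the KILH window is chr6:53573276-53573525, both on the minus strand. The MAP2 window is chr2:209661246-209661495 on the plus strand, 1 of 3 that RefSeq gives for that gene.
F2RL2: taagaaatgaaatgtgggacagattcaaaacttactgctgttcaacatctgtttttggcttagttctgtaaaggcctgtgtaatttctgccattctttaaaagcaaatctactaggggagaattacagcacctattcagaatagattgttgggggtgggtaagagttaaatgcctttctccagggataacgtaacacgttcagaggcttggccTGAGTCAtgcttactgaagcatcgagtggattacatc
KILH: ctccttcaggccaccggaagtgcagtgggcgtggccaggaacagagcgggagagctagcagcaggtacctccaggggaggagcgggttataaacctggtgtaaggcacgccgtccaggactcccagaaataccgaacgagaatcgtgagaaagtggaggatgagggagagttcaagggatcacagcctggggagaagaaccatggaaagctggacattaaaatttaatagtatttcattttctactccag
MAP2: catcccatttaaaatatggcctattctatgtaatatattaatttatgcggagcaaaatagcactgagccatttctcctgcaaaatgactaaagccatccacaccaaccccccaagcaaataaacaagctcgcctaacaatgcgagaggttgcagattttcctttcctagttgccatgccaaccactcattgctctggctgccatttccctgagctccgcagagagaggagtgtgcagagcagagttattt

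Both strands of the 250 bases were searched for TGANTCA, for the antioxidant response element core TGACNNNGC that NRF2 binds with small MAF proteins, and for the E-box CACGTG that TFEB and TFE3 bind. The match in the F2RL2 window starts 37 bases before the start site, and 6.57% of 35116 RefSeq promoter windows hold a TGANTCA. The antioxidant response element core was in 10.9% of all windows and CACGTG in 6.34%, and neither was in the windows of F2RL2, KILH or MAP2. A match is a string of letters and not a measured site, and 3′ end reads do not show which start site was used.

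The study crossed the 3 guides with 2 siRNA treatments to ask how KEAP1 loss and the lysosomal transcription factors TFEB and TFE3 relate. Cells were transduced with lentiCRISPRv2 that carried sgCtrl, which targets the AAVS1 safe-harbour locus, sgKeap1-1 or sgKeap1-2, and selected with puromycin, and no source used here calls the populations clones. They then received either siNC or pooled siRNAs that target TFEB together with TFE3 (sitfeb/sitfe3), and RNA was taken after 72 h. Each of the 6 groups has 4 libraries, 24 in all, with 3527000 to 4600951 reads each, and nothing says whether the 4 came from separate cultures, so p-values measure only the spread between these libraries. At this depth 1 read was worth 0.221 to 0.309 CPM (counts per 1000000 reads), and CPM values were scaled by library with TMM factors.

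KEAP1 mRNA averaged 85.1 ± 0.882 CPM (SD, n = 4) in sitfeb/sitfe3; sgCtrl, 55.8 ± 6.5 CPM in sitfeb/sitfe3; sgKeap1-1 and 78.0 ± 9.02 CPM in sitfeb/sitfe3; sgKeap1-2. It was lower with sgKeap1-1 (log2 fold change -0.61, limma-voom adjusted p = 2.59e-04), and the difference with sgKeap1-2 did not pass the test (-0.13, limma-voom adjusted p = 0.422). Reads at the 3′ end need not fall when a guide disrupts the coding sequence, so mRNA level is a partial check of the guide labels. TFEB averaged 10.8 CPM in siNC; sgCtrl and 2.64 CPM in sitfeb/sitfe3; sgCtrl, and TFE3 33.2 and 11.9 CPM. There the TFE3 difference passed and the TFEB difference did not (limma-voom adjusted p = 0.0237 and 0.0857). With sgKeap1-1, TFEB averaged 11.9 CPM under siNC and 2.87 CPM under sitfeb/sitfe3, and TFE3 49.1 and 14.4 CPM. Both differences passed there (limma-voom adjusted p = 0.0130 for TFEB and 0.00101 for TFE3). With sgKeap1-2 the values were 10.5 and 3.39 CPM for TFEB and 54.8 and 16.5 CPM for TFE3, and both differences passed (limma-voom adjusted p = 0.0418 and 3.48e-04). NFE2L2 itself did not pass the test with either guide under sitfeb/sitfe3 (log2 fold changes -0.22 and -0.14, limma-voom adjusted p = 0.405 and 0.534). The 9 hepatocyte markers, all in the table, summed to between 17759 and 41295 CPM in every library. Under siNC the sum was 30264 to 41295 CPM with sgCtrl, 22180 to 25158 with sgKeap1-1 and 21033 to 23061 with sgKeap1-2. Under sitfeb/sitfe3 it was 27408 to 37418, 20981 to 22076 and 17759 to 25060 CPM. The KEAP1-guide libraries thus lay below the sgCtrl libraries of the same siRNA.

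With the non-targeting siRNA, the members went from near 0 reads to clear expression with both guides. These libraries chose the members, so their values are a description and were not tested. MAP2 had 0, 9, 0 and 0 reads in the 4 siNC; sgCtrl libraries, 123, 133, 197 and 201 in siNC; sgKeap1-1 and 83, 123, 193 and 152 in siNC; sgKeap1-2. DEFB1 had 2, 25, 0 and 0 reads, then 81, 151, 154 and 129, and then 153, 179, 221 and 225. KILH had 3, 1, 0 and 2 reads, then 62, 64, 60 and 68, and then 77, 124, 92 and 79. No guide library overlapped the control range for any of the 4 genes. Among all 11152 genes tested, 7.67% had every siNC; sgKeap1-1 library above every siNC; sgCtrl library and 11.0% had every siNC; sgKeap1-2 library above them, and the rule fixes that the members are among them.

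F2RL2 was the sparsest member, with 0, 2, 0 and 0 reads in siNC; sgCtrl, 16, 19, 43 and 39 in siNC; sgKeap1-1 and 20, 37, 48 and 44 in siNC; sgKeap1-2. Ratios between groups were formed from pooled CPM, the summed reads of a group over its summed TMM-scaled library sizes. The F2RL2 ratio to siNC; sgCtrl rests on 2 control reads, and was 58.4 with sgKeap1-1 (95% interval 15.8 to 488) and 72.8 with sgKeap1-2 (19.8 to 607). The width of these intervals comes from the control side, where a single read changes the ratio. The same ratio for KILH, on 6 control reads, was 42.3 (19.2 to 116) and 60.6 (27.6 to 166). For MAP2, on 9 control reads, it was 72.6 (38.0 to 159) and 59.9 (31.3 to 132). DEFB1, on 27 control reads, had the lowest ratios, 19.0 (12.9 to 29.2) and 28.2 (19.2 to 43.0). Library 2 held all 9 of the control reads of MAP2, 25 of the 27 of DEFB1 and both of F2RL2. Without it the DEFB1 ratio rested on 2 reads and was 191 (52.7 to 1584) with sgKeap1-1 and 283 (78.1 to 2341) with sgKeap1-2, and MAP2 and F2RL2 had 0 reads left in the group and no ratio could be formed. The intervals are exact, conditional on the total count, and cover counting error only.

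**Figure D1:**
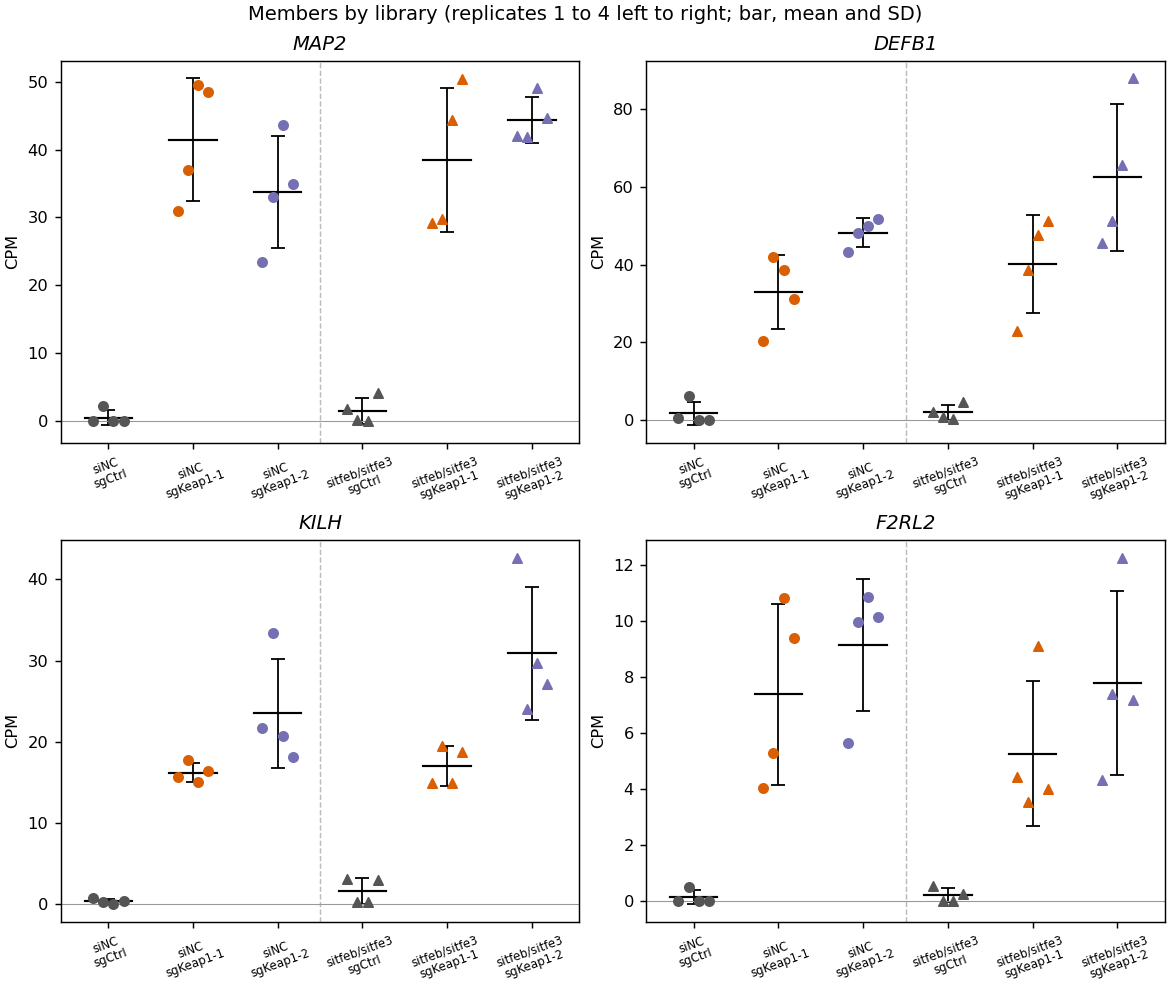
Level of each member in CPM (vertical axis, linear, starting near 0) for the 6 groups (horizontal axis). Each point is 1 library, replicates 1 to 4 from left to right, and the bars give the mean and SD. The highest sgCtrl library is at 4.21 CPM for MAP2, 6.23 for DEFB1, 3.16 for KILH and 0.526 for F2RL2. For each gene, every KEAP1-guide library lies above that gene's highest sgCtrl library.

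The sitfeb/sitfe3 libraries were not used by the rule of choice and give the test. They come from the same transduced populations as the siNC libraries, so they are not a separate set of edited cells. The fit also takes its spread from all 24 libraries, the siNC ones included. All 4 members were higher with both guides under sitfeb/sitfe3 too. With the sitfeb/sitfe3 libraries alone in the fit, all 4 also passed with both guides (limma-voom adjusted p between 1.97e-05 and 5.35e-04). For MAP2 the sitfeb/sitfe3; sgCtrl libraries held 7, 1, 0 and 17 reads (1.84, 0.241, 0 and 4.21 CPM), the sgKeap1-1 libraries 106, 127, 166 and 228 (29.3, 29.8, 44.4 and 50.4 CPM) and the sgKeap1-2 libraries 136, 170, 216 and 193 (42.1, 41.8, 49.0 and 44.7 CPM). Library 4 was the highest control, and the lowest guide library stood 6.95 times above it with sgKeap1-1 and 9.93 times with sgKeap1-2. Group means were 1.57 ± 1.94, 38.5 ± 10.6 and 44.4 ± 3.36 CPM (SD, n = 4). The ratio of pooled CPM was 25.3 (95% interval 17.0 to 39.5) with sgKeap1-1 and 29.1 (19.5 to 45.3) with sgKeap1-2. MAP2 passed the limma-voom test with both guides (log2 fold change 5.66 ± 0.78 SE, limma-voom adjusted p = 1.20e-05, and 5.90 ± 0.78, limma-voom adjusted p = 3.09e-06).

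DEFB1 had 8, 3, 1 and 19 reads in sitfeb/sitfe3; sgCtrl (2.10, 0.724, 0.231 and 4.70 CPM), 83, 164, 178 and 232 in sgKeap1-1 (22.9, 38.5, 47.6 and 51.3 CPM) and 147, 208, 289 and 380 in sgKeap1-2 (45.5, 51.1, 65.6 and 87.9 CPM). The groups did not overlap, with the lowest guide libraries 4.87 and 9.66 times above the highest control. Means were 1.94 ± 2.01, 40.1 ± 12.6 and 62.5 ± 18.9 CPM (SD, n = 4), and the ratios of pooled CPM 21.4 (14.9 to 31.8) and 33.6 (23.5 to 49.7). The log2 fold changes were 4.90 ± 0.76 SE (limma-voom adjusted p = 5.73e-05) and 5.56 ± 0.75 (limma-voom adjusted p = 4.49e-06). In GRCh37 coordinates DEFB1 is a minus-strand gene at chr8:6728114-6735458.

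KILH had 12, 1, 1 and 12 reads in sitfeb/sitfe3; sgCtrl (3.16, 0.241, 0.231 and 2.97 CPM), 54, 83, 56 and 85 in sgKeap1-1 (14.9, 19.5, 15.0 and 18.8 CPM) and 138, 98, 131 and 117 in sgKeap1-2 (42.7, 24.1, 29.7 and 27.1 CPM). Control libraries 1 and 4 stood above 2 and 3, and all 4 lay below every guide library. Means were 1.65 ± 1.63, 17.0 ± 2.45 and 30.9 ± 8.18 CPM (SD, n = 4). The ratios of pooled CPM, 10.8 (7.22 to 16.8) and 18.9 (12.8 to 29.3), were the lowest of the 4 members. The log2 fold changes were 4.06 ± 0.58 SE (limma-voom adjusted p = 1.73e-05) and 4.86 ± 0.57 (limma-voom adjusted p = 4.89e-07).

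F2RL2 had 2, 0, 0 and 1 reads in sitfeb/sitfe3; sgCtrl (0.526, 0, 0 and 0.248 CPM), 16, 15, 34 and 18 in sgKeap1-1 (4.42, 3.52, 9.09 and 3.98 CPM) and 14, 30, 54 and 31 in sgKeap1-2 (4.33, 7.37, 12.3 and 7.17 CPM). The groups did not overlap. Means were 0.193 ± 0.251, 5.25 ± 2.58 and 7.78 ± 3.29 CPM (SD, n = 4). On 3 control reads the ratios of pooled CPM were 27.9 (9.24 to 138) and 43.7 (14.6 to 215), with intervals that span more than 10-fold. The log2 fold changes were 4.34 ± 0.88 SE (limma-voom adjusted p = 0.00121) and 4.99 ± 0.86 (limma-voom adjusted p = 1.19e-04).

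Thus 4 of 4 members passed the test in the higher direction with each guide, against 5.68% of all genes tested with sgKeap1-1 and 10.6% with sgKeap1-2. All 4 also had every guide library above every control library, against 9.06% and 10.6% of genes. The members passed the filter on low counts through their KEAP1-guide libraries, since sgCtrl libraries held at most 17, 25, 12 and 2 reads of them. A gene that low in sgCtrl enters the tested set only if it is higher elsewhere. The shares of all genes are thus not the shares among genes equally low in sgCtrl. For each of these 8 comparisons the two-sided exact permutation test of mean log2 CPM gave p = 0.0286, the smallest that 70 arrangements of 4 against 4 libraries can give. A total of 12 such tests were made, and the p-values were not adjusted over the members. Both guides are set against the same sgCtrl libraries and are not independent of each other. The size of the fitted fold changes differed between tools: for MAP2 with sgKeap1-1, edgeR gave 4.62 in place of 5.66, and the cause was not tested.

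**Figure D2:**
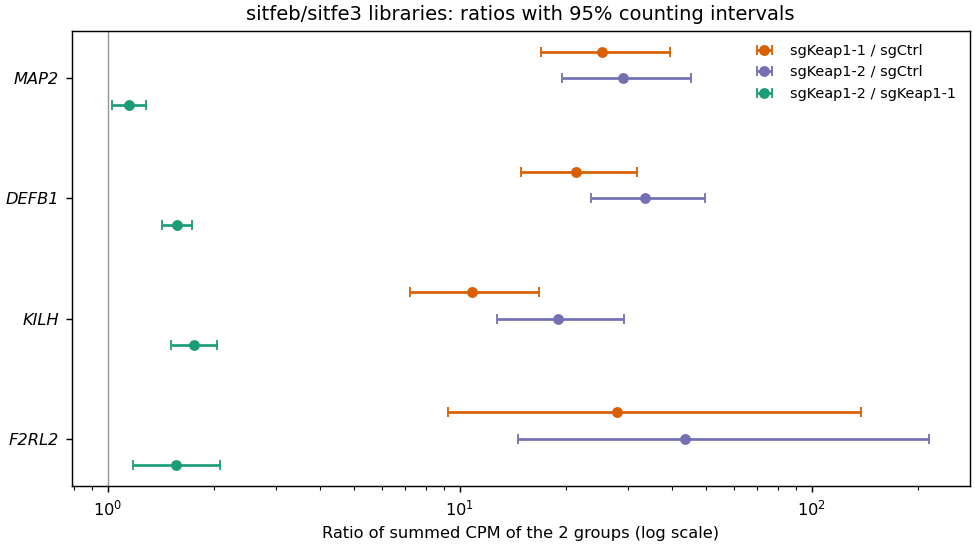
Ratio of pooled CPM between groups of sitfeb/sitfe3 libraries (horizontal axis, log scale) for the 4 members (vertical axis), with 95% counting intervals as bars. Pooled CPM is summed reads over summed scaled library sizes, which the axis title calls summed CPM. All ratios to sgCtrl lie at 10.8 or above, and the ratios of sgKeap1-2 to sgKeap1-1 lie between 1.15 and 1.75.

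The guides were then compared with each other. All 4 members averaged higher with sgKeap1-2 than with sgKeap1-1 under sitfeb/sitfe3, and the fit across all genes called none of them. The log2 difference was 0.24 for MAP2 (95% interval -0.22 to 0.70, limma-voom adjusted p = 0.811), 0.66 for DEFB1 (0.14 to 1.18, limma-voom adjusted p = 0.576), 0.80 for KILH (0.35 to 1.25, limma-voom adjusted p = 0.422) and 0.64 for F2RL2 (-0.10 to 1.39, limma-voom adjusted p = 0.695). KILH was the only member whose guide groups did not overlap: its lowest sgKeap1-2 library was 1.24 times its highest sgKeap1-1 library, a separation in this direction that 2.23% of all genes had, and its exact permutation p was 0.0286. The exact permutation p was 0.371 for MAP2, 0.143 for DEFB1 and 0.314 for F2RL2. Only 1 gene of 11152 (0.00897%) passed in this contrast by limma-voom, with 855 at an unadjusted p under 0.05. The test does not show that the guides acted alike, since the intervals for DEFB1 and KILH leave out 0.

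Knockdown lowered TFEB and TFE3 mRNA in the KEAP1-guide cells without removing it, and the members stayed expressed there. The contrasts of the members between siRNA treatments use the siNC libraries that chose them and were not tested. With sgKeap1-1 the ratio of sitfeb/sitfe3 to siNC was 0.933 for MAP2 (counting interval 0.835 to 1.04), 1.24 for DEFB1 (1.10 to 1.40), 1.06 for KILH (0.895 to 1.27) and 0.690 for F2RL2 (0.515 to 0.922). With sgKeap1-2 it was 1.30 for MAP2 (1.16 to 1.45), 1.32 for DEFB1 (1.2 to 1.45), 1.30 for KILH (1.14 to 1.49) and 0.866 for F2RL2 (0.679 to 1.10). The intervals of MAP2, DEFB1 and KILH lie above 1 there, for counting error only. In all 8 cases the library ranges of the siRNA groups overlapped. F2RL2 was below 1 with both guides, and DEFB1 and KILH were above 1 with both.

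Ordered by mean CPM over the 6 groups, each member had the sgCtrl groups at the bottom, siNC below sitfeb/sitfe3, and the 4 KEAP1-guide groups above. MAP2 ran from 33.8 ± 8.27 CPM (siNC; sgKeap1-2) through 38.5 and 41.5 ± 9.0 CPM (siNC; sgKeap1-1) to 44.4 CPM. DEFB1 ran from 33.0 ± 9.57 CPM (siNC; sgKeap1-1) through 40.1 and 48.2 ± 3.68 CPM (siNC; sgKeap1-2) to 62.5 CPM. KILH ran from 16.2 ± 1.17 CPM (siNC; sgKeap1-1) through 17.0 and 23.5 ± 6.73 CPM (siNC; sgKeap1-2) to 30.9 CPM. F2RL2 ran from 5.25 CPM (sitfeb/sitfe3; sgKeap1-1) through 7.38 ± 3.24 (siNC; sgKeap1-1) and 7.78 CPM to 9.14 ± 2.36 CPM (siNC; sgKeap1-2). Neighbouring groups overlapped in their library values at every step of all 4 orders except the step from the upper sgCtrl group to the lowest KEAP1-guide group.

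Across all 16 KEAP1-guide libraries the lowest read count was 83 for MAP2, 81 for DEFB1, 54 for KILH and 14 for F2RL2. Across the 8 sgCtrl libraries the highest was 17, 25, 12 and 2. The libraries carry numbers 1 to 4 whose labels share a prefix across groups, with no statement of what it marks. In 4 of the 4 KEAP1-guide groups, MAP2 was higher in both libraries numbered 3 and 4 than in both numbered 1 and 2. The same held in 3 of the 4 groups for DEFB1, in 2 for F2RL2 and in 0 for KILH, and F2RL2 was highest in library 3 in all 4 groups.

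The sgCtrl libraries were not uniformly silent. Of the 8, 4 had no MAP2 read, 2 no DEFB1 read, 1 no KILH read and 5 no F2RL2 read. Many of the reads that were there came from 3 libraries. In sitfeb/sitfe3; sgCtrl libraries 1 and 4, MAP2 stood at 4.44% and 10.2% of its mean in the KEAP1-guide libraries of the same siRNA, DEFB1 at 4.10% and 9.17% and KILH at 13.2% and 12.4%. In libraries 2 and 3 of that group none of these 3 genes exceeded 1.41%. In siNC; sgCtrl library 2, DEFB1 stood at 15.3%, F2RL2 at 6.04% on 2 reads and MAP2 at 5.96%. KILH, at 1.25% on 1 read, did not follow there: within siNC; sgCtrl it was higher in libraries 1 and 4, at 3.83% and 2.37%. The summed reads of the 40 other near-silent genes defined below were also highest in these libraries, at 16.0% and 20.1% in sitfeb/sitfe3; sgCtrl libraries 1 and 4 and 16.7% in siNC; sgCtrl library 2, against 9.20% to 11.7% in the other 5. PTGR1, which encodes prostaglandin reductase 1, was at 6.04%, 11.3% and 7.56% in those 3 libraries and at 1.83% to 4.53% in the others. The summed NRF2 reference targets were at 26.3%, 34.0% and 29.7% in those 3 libraries and at 21.0% to 27.0% in the others. The source of these reads was not tested. With sitfeb/sitfe3; sgCtrl library 4 left out, the MAP2 ratios were 59.6 and 68.4 and the DEFB1 ratios 41.6 and 65.3. With library 1 left out, the F2RL2 ratios rested on 1 control read and were 64.3 (11.2 to 2570) and 101 (17.7 to 4005). With libraries 1 and 4 both left out, a choice made after seeing the data, all 4 members still passed with both guides (limma-voom adjusted p between 9.07e-05 and 0.0153).

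A wider class was cut by level in the siNC libraries: a mean under 2 CPM in siNC; sgCtrl and of at least 5 CPM with both guides. It held 44 genes, all of them tested, and the 4 members were among them. MAP2 and DEFB1 ranked first and second by the smaller guide mean. The 10 genes that led the other 40 were LUCAT1, TUSC3, TINAG, NOTCH3, HHIPL2, ALDH3A1, RGS9, NRG1, LYVE1 and QPCT. LUCAT1, a long non-coding RNA like KILH, averaged 1.86 CPM in siNC; sgCtrl and 24.9 and 29.3 CPM with the guides. ALDH3A1, an aldehyde dehydrogenase, averaged 0.970 CPM and then 14.1 and 13.8 CPM. NOTCH3, a receptor of the Notch family, averaged 0.630 CPM and then 15.7 and 16.2 CPM, and NRG1, a ligand of ERBB receptors, 0.654 CPM and then 9.83 and 13 CPM. The class also held MAP1A, a relative of MAP2.

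In the sitfeb/sitfe3 libraries, which did not define the class, 39 of the 44 were higher by the test with sgKeap1-1 and 42 with sgKeap1-2. The same 39 passed with both, and of all genes tested 5.68% and 10.6% were higher. The class rule required high siNC guide means, through which its genes could pass the filter on low counts. Those shares are thus not the shares among genes equally low in sgCtrl. The 5 that did not pass with sgKeap1-1 were CACNA1H, GPSM1, YWHAE, PAQR5 and IGFBP3, and GPSM1 and YWHAE also did not pass with sgKeap1-2. YWHAE had the smallest separation, at 2.00 CPM in sitfeb/sitfe3; sgCtrl against 2.47 and 1.81 CPM. The reverse class, at least 5 CPM in siNC; sgCtrl and under 2 CPM with both guides, held 3 genes: G6PC1 of glucose release, the histidine-degrading enzyme gene HAL, and ROR1. ROR1 was lower with both guides under sitfeb/sitfe3 (log2 fold changes -2.56 and -2.80, limma-voom adjusted p = 0.00211 and 6.95e-04). G6PC1 passed with sgKeap1-2 alone (-3.57, limma-voom adjusted p = 0.0275), and HAL with neither (-0.94 and -3.00, limma-voom adjusted p = 0.590 and 0.0884).

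**Figure D3:**
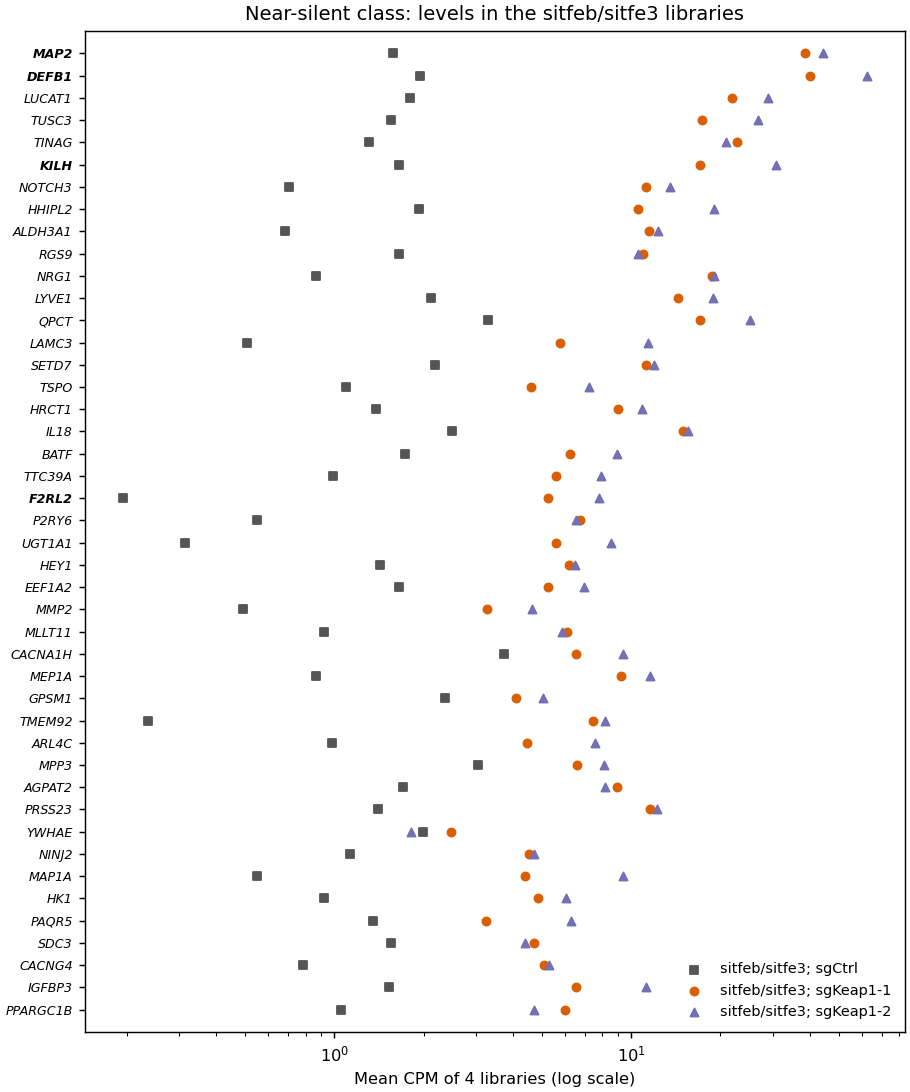
Mean CPM of 4 libraries (horizontal axis, log scale) in the 3 sitfeb/sitfe3 groups for the 44 genes of the near-silent class (vertical axis, ordered by the smaller siNC guide mean, the 4 members in bold). The guide markers lie to the right of the sgCtrl square for all but YWHAE, where sgKeap1-2 at 1.81 CPM lies left of sgCtrl at 2.00 CPM.

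Genes whose pattern was most like each member were ranked by the root mean square difference of log2 CPM over the 24 libraries, each gene centred on its own mean, among 11151 others. The libraries are shared and include the siNC libraries that chose the members, so likeness between members is partly built in and this is a description. MAP2 and DEFB1 were each other's nearest gene, at a difference of 0.480, against medians over all genes of 2.60 for MAP2 and 2.5 for DEFB1. The medians were lower for KILH (2.12) and F2RL2 (1.78). Next for MAP2 came PTGR1 (0.567), NOTCH3 (0.818), SEL1L3 (0.822) and KILH (0.833). The list for MAP2 thus held 2 other members. Next for DEFB1 came PTGR1 (0.516), SEL1L3 (0.714), AKR1B10 (0.783) and NOTCH3 (0.799). PTGR1 was nearest to KILH (0.577), followed by LAMC3 (0.584), LUCAT1 (0.632), AKR1B10 (0.648) and SEL1L3 (0.661). LAMC3 encodes a laminin chain and LUCAT1 a long non-coding RNA, and both were near-silent in siNC; sgCtrl. F2RL2 was nearest to TUSC3 (0.373), LAMC3 (0.433), NOTCH3 (0.444), DUSP13B (0.453) and AKR1B10 (0.486). AKR1B10, an aldo-keto reductase and textbook NRF2 target, thus stood near 3 of the 4 members although its own level in siNC; sgCtrl was 74.3 CPM and far from silent. PTGR1 was likewise expressed there, at 39.3 CPM.

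Of 17 tested neighbours and overlapping genes of the members, 2 passed with sgKeap1-1 and 7 with sgKeap1-2 in either direction, where 10.5% and 20.2% of all genes tested did. With sgKeap1-1 that share is near the background. Next to KILH, GCLC was higher with both guides under sitfeb/sitfe3, from 66.9 ± 6.27 to 150 ± 12.6 and 192 ± 17.1 CPM (SD, n = 4), with log2 fold changes of 1.16 and 1.52 (limma-voom adjusted p = 2.85e-08 and 1.38e-10). On the other side of KILH, the long non-coding RNA LINC01564 averaged 1.04, 2.19 and 3.64 CPM and passed with sgKeap1-2 alone (2.44, limma-voom adjusted p = 0.00736). LRRC1, beyond it, fell with sgKeap1-2 (-0.47, limma-voom adjusted p = 0.00283), and ELOVL5, beyond GCLC, passed with neither guide. The increase of KILH on the log2 scale was larger than that of GCLC in the fitted values of both guides, a difference that was not tested.

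IQGAP2, the gene around F2RL2, did not pass with either guide (log2 fold changes -0.19 and 0.02, limma-voom adjusted p = 0.441 and 0.927) and averaged 159, 140 and 167 CPM. The strand setting of the counting is not given in the sources used here, so the reads of these overlapping genes cannot be told apart with certainty, and IQGAP2 was at that level in the sgCtrl libraries where F2RL2 had 0 to 2 reads. F2R, the gene of the thrombin receptor PAR1 and the nearest tested neighbour of F2RL2 on one side, was higher with both guides, from 10.4 ± 1.11 to 20.5 ± 2.40 and 20.7 ± 2.15 CPM (SD, n = 4, limma-voom adjusted p = 0.00178 and 7.81e-04). F2RL1, the gene of PAR2 and next in line, averaged 8.37, 24.6 and 22 CPM and did not pass (limma-voom adjusted p = 0.0751 and 0.112). POC5, on the other side, passed with neither guide, and POLK passed with sgKeap1-2 alone (0.80, limma-voom adjusted p = 0.0198).

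The 4 tested neighbours of MAP2 were PIKFYVE, IDH1-AS1, RPE and KANSL1L, and IDH1-AS1 alone passed, lower with sgKeap1-2 (-1.12, limma-voom adjusted p = 0.0180). The 4 around DEFB1 were AGPAT5, MCPH1, FAM86B3P and PRAG1, and MCPH1 alone passed, higher with sgKeap1-2 (0.56, limma-voom adjusted p = 0.0205). None of the other defensin genes on the antimicrobial list was in the table.

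Gene families around the members were compared under sitfeb/sitfe3 from lists chosen with earlier results of these data known. The microtubule, antimicrobial and receptor lists hold MAP2, DEFB1 and F2RL2, which count among the risers and in the medians. Of all genes tested, 5.68% were higher and 4.81% lower with sgKeap1-1, and 10.6% were higher and 9.59% lower with sgKeap1-2. Of 24 microtubule-associated proteins and tubulin partners, 16 were in the table and 12 were tested, and 3 rose and 1 fell with sgKeap1-1 while 4 rose and 2 fell with sgKeap1-2. The median log2 fold change of the list was 0.21 and 0.08, beside 0.00 and 0.01 over all genes tested. Those that rose with both guides were MAP2, MAP1A (from 0.549 to 4.39 and 9.37 CPM) and MAP1B (from 130 to 339 and 469 CPM). MAP1A and MAP1B are large microtubule-associated proteins best known from neurons. MAP4, the widely expressed relative of MAP2, rose with sgKeap1-2 alone (0.45, limma-voom adjusted p = 0.0023). STMN3, of the microtubule-destabilising stathmin family, fell with both (-0.58 and -1.11, limma-voom adjusted p = 0.0258 and 4.21e-05), and STMN1 fell with sgKeap1-2.

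The neuronal markers gave no call beside MAP2. Of 21 neuronal markers 4 were in the table, 2 were tested and 0 passed with either guide, by limma-voom. ENO2 averaged 26.8, 27.9 and 34.0 CPM in the 3 sitfeb/sitfe3 groups. UCHL1 averaged 1.5, 3.86 and 17.6 CPM, with an SD of 30.8 in sgKeap1-2. The median log2 fold changes, 1.05 and 1.57, rest on these 2 genes alone. INA and SYP, in the table but not tested, averaged under 3 CPM in every group. The 4 markers summed to between 17.3 and 31.9 CPM in siNC; sgCtrl and 40.4 and 59.8 CPM in the siNC guide groups. They summed to between 26.9 and 36.7 CPM in sitfeb/sitfe3; sgCtrl and 26.5 and 113 CPM in the sitfeb/sitfe3 guide groups. Their part in the MAP2 result was not tested. Of 12 markers of endothelial, leukocyte and stromal cells, CD68, CD14 and ACTA2 were in the table and 0 of these 3 passed by limma-voom.

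Of 40 antimicrobial peptides and proteins 7 were in the table, all tested, and DEFB1 alone rose with either guide. LEAP2, a liver antimicrobial peptide that also acts as a hormone, fell from 16.1 to 6.10 and 3.71 CPM (-1.47 and -2.01, limma-voom adjusted p = 0.00829 and 0.00100). ANG, a secreted ribonuclease, fell from 133 to 87.1 and 82.5 CPM (-0.60 and -0.68, limma-voom adjusted p = 0.00146 and 2.09e-04). LYZ, HAMP, RNASE4 and CCL20 passed with neither guide. The list's median log2 fold change was -0.06 and -0.44.

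Of 32 protease-activated receptor, thrombin axis and G protein genes 29 were tested. With sgKeap1-1, 3 rose and 1 fell, and with sgKeap1-2, 4 rose and 3 fell, with medians of 0.04 and 0.05. F2RL2, F2R and GNA13, a G protein alpha subunit that couples these receptors to RHOA, rose with both guides, GNA13 from 29.0 to 51.6 and 59.5 CPM. PLCB1 rose with sgKeap1-2 alone. SERPINC1, the thrombin inhibitor antithrombin, fell with both (-0.40 and -0.48, limma-voom adjusted p = 0.0474 and 0.00881), and GNAQ and GNA11 fell with sgKeap1-2. F2, prothrombin itself, averaged 651, 599 and 659 CPM and passed with neither guide.

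As a reference, all 10 tested genes of 12 textbook NRF2 targets rose with both guides under sitfeb/sitfe3, with medians of 1.55 and 1.87. NQO1 rose from 649 to 1589 and 1805 CPM and AKR1B10 from 79.6 to 1100 and 1281 CPM. Of the 9 hepatocyte markers 5 fell with each guide (ALB, AFP, APOA1, TF and FGB), with medians of -0.62 and -0.54, ALB by -1.02 and -1.21 and AFP by -1.43 and -2.32. The part of this shift in the members' results was not tested.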

How the data were processed

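RNA of 24 HepG2 libraries in 6 groups of 4 was measured. Per the study's methods, QuantSeq 3′ libraries were sequenced single-end, trimmed, aligned and counted per gene, with GRCh37 as the genome. The submitters' processing notes list FastQC 0.72, cutadapt 1.16, STAR 2.7.5b, featureCounts 1.6.3, limma 3.40.6 and hg38, so the build is unsettled, and the table holds no coordinates. The values the authors deposited are raw counts per Entrez gene, unnormalized, and no row totals fewer than 15 reads over the libraries. Rows without a gene ID, 1414 of 13446 with 1.35% to 2.57% of reads, were left out. Rows that shared an ID (43) were summed, and 160 IDs with counts identical to another were merged to 78 features, leaving 11927.

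Genes were tested by limma-voom as in the study's methods: filterByExpr by group left 11152 genes, with TMM factors and 1 fit of 6 group means, two-sided, Benjamini-Hochberg adjusted over all genes with a threshold of 0.05. Versions were R 4.3.3, edgeR 4.0.16 and limma 3.58.1. CPM used TMM-scaled library sizes, and log2 CPM a prior count of 2. Single members were also compared by exact permutation tests (scipy 1.17.1), left unadjusted over the members in departure from the plan. Ratios carry exact 95% conditional binomial intervals. The procedure was tested on simulated data. Alternatives were edgeR, DESeq2 1.42.0, other scaling, filters, weights, a replicate block and left-out libraries.

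The members and gene lists were chosen with earlier results of these data known. Named genes were the members, KEAP1, TFEB, TFE3 and NFE2L2, the 5 genes nearest in pattern to each member, the 2 nearest tested neighbours on each side and overlapping genes, up to 10 of the near-silent class and its reverse class, and list members. Names, neighbour order and promoters came from RefSeq (GRCh38.p14) and positions from GENCODE on GRCh37, and 11980 of 12009 IDs had a symbol.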

Additional observations from a re-analysis of the deposited data

Results flagged for a closer look

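A Dixon test at the 95% level over 24 sets of 4 values (4 members in 6 groups) picked out 5 single libraries. The nominal rate of 1 in 20 is for normal values and does not hold for counts near 0. A set with reads in a single library, as for MAP2 and F2RL2 in siNC; sgCtrl, has a ratio of 1.0 whatever its count. The siNC libraries also chose the members, so these flags are a description. In siNC; sgCtrl library 2, MAP2 (2.24 CPM), DEFB1 (6.23 CPM) and F2RL2 (0.498 CPM) each stood above the other 3 libraries, and the F2RL2 value is 2 reads against 0. F2RL2 was low in siNC; sgKeap1-2 library 1 (5.64 CPM) and high in sitfeb/sitfe3; sgKeap1-1 library 3 (9.09 CPM).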

How the results depend on the processing

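All 211 values of the members under the alternatives kept their direction and their side of the threshold, with sgCtrl libraries left out as well. Sizes moved more: the log2 fold change of MAP2 ranged from 4.62 to 7.53 with sgKeap1-1 and 4.82 to 7.77 with sgKeap1-2, DEFB1 from 4.23 to 6.17 and 4.89 to 6.83, KILH from 3.39 to 5.60 and 4.23 to 6.40, and F2RL2 from 4.01 to 5.38 and 4.66 to 6.02. The highest values came with sitfeb/sitfe3; sgCtrl libraries 1 and 4 left out, an alternative chosen after seeing the data, under which 779 genes passed with sgKeap1-1 in place of 1169. Sample quality weights gave 1989 there. The guide difference, 1 gene in the reported fit, was 3 with edgeR, 20 with DESeq2, 5 with quality weights, 8 without the libraries numbered 1, 2 with library sizes from all rows, and 0 to 3 with single libraries left out (0 without sgKeap1-2 library 2, 3 without sgKeap1-2 library 1). The cause of these moves was not tested. DESeq2 gave no adjusted p for F2RL2 in that contrast.

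Deviations from the group means correlated above 0.1 in 20 of 60 same-numbered pairs of libraries (r between -0.16 and 0.43, median 0.05) and in 17 of 180 pairs with different numbers (median -0.02). Same-numbered libraries share a label prefix of unstated meaning, and some of them deviated together. Whether a number marks a shared source is not stated. The reported fit did not use the numbers, and a fit with them as a block was an alternative. With the replicate block, 1382 genes passed with sgKeap1-1, 2480 with sgKeap1-2 and 11 between the guides, and no call of a member changed. Neighbours, lists and the near-silent class were not refitted with it. Depth limits F2RL2 most, with 2 and 3 reads in the sgCtrl groups.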
